A study of Mus musculus with 12 samples.

Results

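The genes described here build, cross-link and cut the extracellular matrix: the collagen chains, the laminin chains, the lysyl oxidases, the matrix metalloproteinases and their tissue inhibitors, and 11 named matrix or contractile genes from Dcn to Eln. They were taken by gene name from the array annotation, with no use of measured values, which gave 95 genes (138 probes) of the 34741 genes on the array. Liver RNA of F2 males of the C3H/HeN strain, about 74 weeks old, was measured on 12 one-colour (Cy3) arrays. In the arsenite line, F0 dams drank water with 85 ppm sodium arsenite on gestation days 8 to 18, and the F1 mice were mated at 10 weeks, so that no F1 or F2 mouse was given arsenite water itself. The 4 groups of 3 arrays are control-line non-tumour liver, arsenite-line normal liver, arsenite-line non-tumour liver and arsenite-line liver tumours. Samples carry the numbers 1 to 3 within a group, and the labels do not say which numbers share a mouse. A p-value here reflects only the spread within groups of 3 such samples, pooled over the 4 groups.

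Collagens are trimers of chains wound around each other, and glycine at every turn of the repeat lets the helix close. Fibrillar collagens (types I, III and V) give interstitial tissue its strength, lysyl oxidases cross-link them, and small proteoglycans such as decorin coat the fibrils. Basement membranes are sheets made of type IV collagen and laminins, each laminin being a trimer of an alpha, a beta and a gamma chain, linked by nidogen and perlecan. Hepatic sinusoids lack a continuous basement membrane, and stellate cells and portal fibroblasts are the best known matrix producers of the liver. Metalloproteinases cut these proteins, and TIMP proteins inhibit them.

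Type IV collagen genes lie in the genome as pairs that point away from each other, and the pair on the X chromosome is shown because Col4a5 was brighter and Col4a6 dimmer in the tumours. In RefSeq (build GRCm38.p6) the starts of Col4a5 and Col4a6 lie 1343 bases apart on opposite strands, and those of Col4a1 and Col4a2 lie 21 bases apart. The promoters of Lama5 and Lamb1 are added as those of a laminin gene that rose and of one that fell. Each line gives the 250 bases before the start, 5′ to 3′ on the strand of the gene, at chrX:141475169-141475418 (plus strand), chrX:141474077-141474326 (minus strand), chr2:180225860-180226109 (minus strand) and chr12:31265043-31265292 (plus strand). Capitals mark CCAAT and GGGCGG boxes found on either strand.
Col4a5: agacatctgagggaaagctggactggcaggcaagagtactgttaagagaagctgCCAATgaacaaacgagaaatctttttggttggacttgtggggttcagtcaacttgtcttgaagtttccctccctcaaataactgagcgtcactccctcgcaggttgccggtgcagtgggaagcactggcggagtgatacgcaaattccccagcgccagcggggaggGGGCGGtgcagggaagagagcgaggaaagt
Col4a6: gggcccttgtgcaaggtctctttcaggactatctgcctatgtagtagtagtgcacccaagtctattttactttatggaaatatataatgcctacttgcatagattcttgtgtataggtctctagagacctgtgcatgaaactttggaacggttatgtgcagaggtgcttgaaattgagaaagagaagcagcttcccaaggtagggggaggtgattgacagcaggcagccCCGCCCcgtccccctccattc
Lama5: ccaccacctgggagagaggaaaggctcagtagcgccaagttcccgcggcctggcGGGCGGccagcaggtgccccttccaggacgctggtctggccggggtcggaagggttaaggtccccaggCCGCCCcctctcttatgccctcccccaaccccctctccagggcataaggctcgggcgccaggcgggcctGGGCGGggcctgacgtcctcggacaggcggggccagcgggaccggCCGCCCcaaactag
Lamb1: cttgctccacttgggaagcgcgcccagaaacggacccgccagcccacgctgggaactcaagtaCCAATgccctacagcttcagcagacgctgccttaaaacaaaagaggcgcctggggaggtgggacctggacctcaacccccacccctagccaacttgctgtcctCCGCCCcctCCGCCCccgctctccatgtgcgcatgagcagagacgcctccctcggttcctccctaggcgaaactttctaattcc

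The Col4a5 promoter held 1 CCAAT, 196 bases before the start, and 1 GGGCGG at 30 bases, whereas the Col4a6 promoter held 1 GGGCGG at 21 bases and no CCAAT. Lama5 had 4 GGGCGG matches, the nearest 14 bases before the start, and Lamb1 had 2 of them and 1 CCAAT. GC content was 54% for Col4a5, 47.6% for Col4a6, 72.4% for Lama5 and 62% for Lamb1. TATAAA and the AP-1 motif TGANTCA, also searched on both strands, were not among the letters of these 4 sequences, and no match of a motif overlapped one of another. Over windows from 250 bases before to 50 after a start, 53.8% of the 78 windows of 68 of the genes held GGGCGG, against 35.7% of all 32851 windows. CCAAT was in 28.2% against 37.4%, TATAAA in 20.5% against 13.6% and TGANTCA in 8.97% against 7.81%. These matches describe letters and were not tied to any binding.

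Each level below is a processed signal on the log2 scale, less the 75th percentile of its array, so a level of 0 equals that percentile and 1 unit is a doubling. Levels of different probes were not set against each other, since probes differ in brightness for equal RNA. A probe was tested when some group had all 3 of its arrays well above background, and a gene was called changed at an adjusted p under 0.05 (limma, Benjamini-Hochberg over 18101 genes). Of the 95 genes, 50 were tested and 45 did not pass. Of the tested genes 37 were above background on all 12 arrays. Another 6 (Col11a2, Col4a3, Col4a5, Col6a6, Loxl4 and Timp1) passed through 1 group alone, that of tumours, so a difference from tumours was built into their selection, and their tumour comparisons are given as a description with no p. None of the probes that stand for the 95 genes, 1 per gene, was saturated. The tumour arrays had the highest 75th percentiles (214.8 to 244.7 units, against 152.7 to 203.7 on the other arrays) and 45.5% to 46.9% of spots above background, against 40.5% to 45.3%. All 3 tumour arrays were on a slide of their own, as were the 3 arrays of normal liver, so slide and group cannot be told apart in comparisons with them. The 2 non-tumour groups shared a slide.

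Against arsenite-line non-tumour liver, 32 of the 50 tested matrix genes were called in tumours, where 47.0% of all genes tested were called. They split into 16 higher (17.1% of all genes) and 16 lower (29.9% of all genes), and 17 of them changed at least 2-fold (18.0% of all genes). The groups did not overlap for 32 of the 50 (56.4% of all genes), with 16 higher (20.5%) and 16 lower (35.9%). Against arsenite-line normal liver, 32 were called (48.0% of all genes), with 16 higher (17.1%) and 16 lower (30.9%), and 20 changed at least 2-fold (18.0%). There the groups did not overlap for 31 (58.7% of all genes), 15 higher (21.0%) and 16 lower (37.7%). The median difference of the 50 genes was 0.03 against non-tumour liver and -0.16 against normal liver, beside -0.13 and -0.15 over all genes tested. These comparisons share the tumour arrays and are given side by side, not as independent evidence. With scaling to the 75th percentile of probes detected on all arrays, the median of all genes against non-tumour liver moved from -0.13 to 0.03 and the split of the matrix genes to 19 higher and 13 lower. Of the 16 higher genes, Col4a3, Col4a5, Col6a6 and Timp1 had passed through the tumours alone. The 2-fold counts of both comparisons also hold these genes. Those counts and the counts of groups without overlap were not redone without them, so part of each was built into the selection. Without the 6 genes of that kind, 12 of 44 were higher (27.3%) and 16 lower (36.4%) in either comparison. Over all genes left by the same rule, 14.7% were higher and 31.7% lower than in non-tumour liver, and 15% and 32.6% against normal liver. The median difference of the 44 from non-tumour liver was -0.17, beside -0.15 over all genes left. From normal liver it was -0.31, beside -0.17 over all genes left. No matrix gene called in the main setting changed sign under any setting run. In whole tissue, fewer cells of a type and less RNA per cell cannot be told apart.

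**Figure D1:**
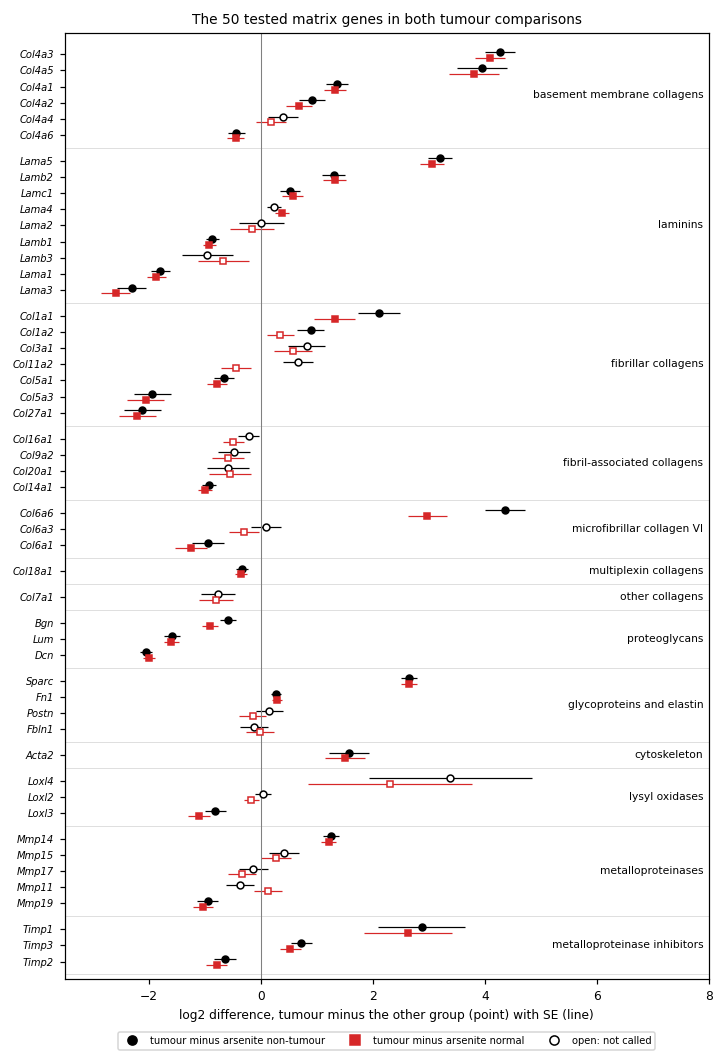
The horizontal axis gives the log2 difference of tumours from arsenite-line non-tumour liver (black circles) and from arsenite-line normal liver (red squares) for the 50 tested genes, grouped by role; lines are SEs and open symbols were not called. The laminins hold genes far to both sides, from Lama5 at 3.20 to Lama3 at -2.30 against non-tumour liver, and the 3 proteoglycans all lie below 0. The points of Col11a2, Col4a3, Col4a5, Col6a6, Loxl4 and Timp1 are differences from arrays mostly at background and have no measured size.

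Of the 6 genes of type IV, the basement membrane collagen, Col4a1 and Col4a2 rose in tumours in both comparisons, Col4a6 fell and Col4a4 was not called, while Col4a3 and Col4a5 passed the filter through the tumours alone. Col4a1, which with Col4a2 encodes the chains of the common type IV network, read 2.04, 1.67 and 1.34 in tumours 1 to 3, against 0.27, 0.41 and 0.30 in arsenite-line non-tumour liver, 0.49, 0.16 and 0.43 in normal liver and 0.03, 0.63 and 0.54 in control-line non-tumour liver. Every tumour was above every other array for this probe (chr8:11199009-11199068 on mm9, minus strand). The rise over non-tumour liver was 1.36 ± 0.20 (SE), or 2.56-fold (limma, adjusted p = 0.000271), and that over normal liver was 1.33 (adjusted p = 0.00032). Its neighbour Col4a2 read 2.39, 2.18 and 1.42 in tumours against 1.13, 1.27 and 0.82 in non-tumour liver, a 1.89-fold rise (0.92 ± 0.23, adjusted p = 0.00797). Tumour 3 had the lowest level of both genes among the tumours. Against the Col4a2 levels of normal liver, 1.28, 1.25 and 1.41, the rise was 0.68 (adjusted p = 0.0338), and it lost the call without any 1 array of the comparison but tumour 3, with adjusted p from 0.0573 without normal liver 3 to 0.121 without tumour 1.

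Col4a3, Col4a4 and Col4a5 encode the chains of another type IV network, best known from the kidney filter. Col4a3 (chr1:82717775-82717834, plus strand) was above background on the tumour arrays alone, at -1.86, -0.73 and -0.67, with -5.29, -5.34 and -5.47 in non-tumour liver and the other groups between -5.40 and -4.90. The difference was at least 3.97-fold. This bound was set against the dimmest signal of any probe still above background on each array, or the reading itself where that was higher. That signal is not the detection limit of the probe in question, so bounds of this kind are approximate. Col4a5 (chrX:138123547-138123606, plus strand) read 0.13, 0.74 and -0.06 in tumours against -3.94, -2.71 and -4.38 in non-tumour liver, where 1 of the 3 arrays was above background. Against normal liver, with no array above background, the difference was at least 9.04-fold.

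The opposite partner of Col4a5, Col4a6 (chrX:137601433-137601491, minus strand), fell by 0.43 on the log2 scale (SE 0.16, adjusted p = 0.0435). Its tumours read -1.52, -1.15 and -1.25 against -0.72, -0.77 and -1.13 in non-tumour liver, so the groups were separated by a narrow gap. This call was lost with the replicate number as a block (adjusted p = 0.0689 on 12 arrays and 0.114 on 6). Leaving out non-tumour 1 (0.139) or 2 (0.123), or tumour 1 (0.144) or 3 (0.0662), ended it as well. So did a shift to a common median (0.0651), normexp background correction (0.0577) and scaling to the percentile of detected probes (0.147). Against normal liver the value was -0.45 (adjusted p = 0.0377), lost without normal liver 1 (0.0731), normal liver 3 (0.122), tumour 1 (0.127) or tumour 3 (0.0585). The median shift (0.408) and the percentile of detected probes (0.107) ended that call too.

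Col4a4 depended on its probe. The tested probe with the highest mean over all arrays, which stands for the gene, read -2.62, -1.72 and -1.55 in tumours against -2.36, -2.52 and -2.21 in non-tumour liver, a difference of 0.40 that was not called (adjusted p = 0.237). Without tumour 1 the difference was 0.73 (adjusted p = 0.0134). The other tested probe, 67684 bases away, read -1.39, -0.70 and -0.54 in tumours and -2.45, -2.80 and -3.35 in non-tumour liver, a difference of 1.99. It was above background on 2 of the 3 non-tumour arrays and passed the filter through the tumours alone. A further probe for the gene, which did not pass the filter, lies 1254 bases from that one. The probe that stands for the gene is shown because its letters lie in the collagen repeat: it matches chr1:82515563-82515622 on mm9 (minus strand), and capitals mark the 5 glycine codons (GGN) among the 19 codons of the frame in which they recur, with 3 pairs spaced by 9 bases.
Col4a4 probe: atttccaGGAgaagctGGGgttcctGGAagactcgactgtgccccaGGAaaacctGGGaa

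Among the laminins, 3 of 9 tested chains rose over non-tumour liver, 3 fell and 3 were not called, beside 17.1% higher and 29.9% lower over all genes, and 2 of the 11 genes were not tested. Lama5, an alpha chain of mature epithelial and vascular basement membranes, read 2.07, 2.88 and 2.36 in tumours against -0.50, -0.61 and -1.19 in non-tumour liver, and from -0.90 to -0.56 in the remaining groups. No tumour came near any other array, and the rise was 9.21-fold (3.20 ± 0.22, adjusted p = 2.08e-06; chr2:179911079-179911138, minus strand). The beta chain gene Lamb2 read -0.60, 0.03 and 0.08 in tumours against -1.65, -1.09 and -1.65 in non-tumour liver, a 2.47-fold rise (1.30 ± 0.21, adjusted p = 0.000487). Lamc1 encodes the gamma chain that most laminin trimers hold. It read 1.49, 1.5 and 0.74 in tumours against 0.64, 0.75 and 0.75 in non-tumour liver, so that tumour 3 lay inside the other group. Its rise of 0.53 (adjusted p = 0.0357) was lost with the replicate block on 6 arrays (0.12) and without any 1 array but tumour 3 (0.0669 to 0.126). A shift to a common median ended it as well (0.128). Lama5, Lamb2 and Lamc1 encode chains that can form a trimer together.

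The alpha chain gene Lama1 and the beta chain gene Lamb1, whose products also join that of Lamc1, went the other way. Lama1 read -0.94, -0.80 and -0.49 in tumours against 0.79, 1.08 and 1.28 in non-tumour liver, 3.47-fold lower (-1.79 ± 0.17, adjusted p = 1.75e-05; chr17:68171924-68171983). Lamb1 read -0.03, -0.06 and -0.37 against 0.58, 0.81 and 0.74, 1.82-fold lower (-0.86 ± 0.12, adjusted p = 0.000206; chr12:32014411-32014470, plus strand). For both, each tumour was below each of the other 9 arrays. Lama3, an alpha chain of epithelia, read -2.11, -2.27 and -2.01 against 0.61, -0.02 and -0.07, 4.94-fold lower (-2.30 ± 0.26, adjusted p = 5.88e-05). Its other tested probe, 391 bases away, read -5.05, -5.61 and -4.70 in tumours, with none of the 3 above background, and 0.57, 0.06 and -0.18 in non-tumour liver.

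Lama4, Lama2 and Lamb3 were not called against non-tumour liver. Lamb3 read -2.20, -0.22 and -2.36 in tumours against -0.62, -0.41 and -0.90 in non-tumour liver. Tumour 2 alone stayed at the non-tumour level, and without it the difference was -1.64 (adjusted p = 9.54e-05), against -0.95 (adjusted p = 0.11) with it. Lama4 differed by 0.23 from non-tumour liver (adjusted p = 0.161) and by 0.38 from normal liver (adjusted p = 0.0295), the latter lost without normal liver 1, normal liver 3, tumour 2 or tumour 3 (0.0616 to 0.105). The Lama2 difference was 0.01 (adjusted p = 0.98). Against normal liver, Lama5 rose by 3.06, Lamb2 by 1.32 and Lamc1 by 0.57, while Lama1 fell by 1.87, Lamb1 by 0.92 and Lama3 by 2.59. The Lamc1 call there was lost without normal liver 2, normal liver 3, tumour 1 or tumour 2 (0.0634 to 0.0933).

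**Figure D2:**
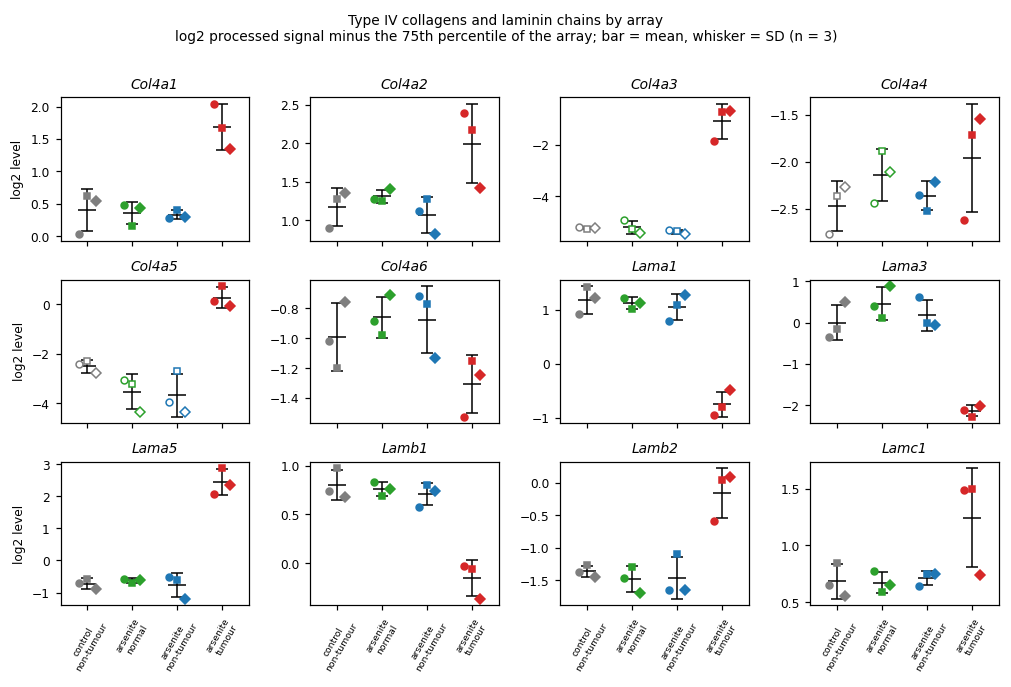
Each panel plots the log2 level (vertical axis, log2 units relative to the 75th percentile of the array) of a type IV collagen or laminin gene in the 4 groups; circles, squares and diamonds are samples 1, 2 and 3, bars are means, whiskers are SDs (n = 3), and open symbols mark groups in which not all 3 arrays were above background. Lama5 lies at 2.07 to 2.88 in tumours and at -0.50 or lower elsewhere, and Lama1, Lama3 and Lamb1 lie lower in tumours than in any other group.

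Of the other basement membrane parts, which come from a related list of 42 matrix components, the nidogen gene Nid1 had the largest difference of the list. It read 5.63, 5.96 and 5.80 in tumours against 0.50, 0.73 and 0.62 in non-tumour liver, and from 0.28 to 0.64 in the remaining groups. The arrays outside the tumours stayed within a narrow band, and the rise was 36.2-fold (5.18 ± 0.11, adjusted p = 1.43e-09). Hspg2, which encodes perlecan, rose by 0.54 over non-tumour liver (adjusted p = 0.000639) and differed by 0.24 from normal liver (adjusted p = 0.0501). Nid2, the other nidogen gene, differed by 0.24 (adjusted p = 0.374). Over the whole list, 4 of 30 tested genes rose (13.3%) and 8 fell (26.7%), which is below the shares over all genes (17.1% and 29.9%).

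Of 7 tested fibrillar collagen genes, 2 rose over non-tumour liver (28.6%, beside 17.1% of all genes) and 3 fell (42.9%, beside 29.9%). The other 2 were not called, and 4 more were not tested. Without Col11a2, which passed through the tumours alone, 2 of 6 rose and 3 fell, beside 14.7% and 31.7% of all genes left by that rule. Col1a1 and Col1a2 encode the chains of type I collagen. Col1a1 (chr11:94813115-94813174, plus strand) read 0.68, 1.30 and -0.25 in tumours, -1.34, -1.57 and -1.69 in non-tumour liver, -0.66, -1.27 and -0.29 in normal liver and -1.63, -0.95 and -1.05 in control-line non-tumour liver. Tumour 3 was only just above the highest normal liver. The rise was 4.33-fold over non-tumour liver (2.11 ± 0.37, adjusted p = 0.000937) and 2.49-fold over normal liver (1.32 ± 0.37, adjusted p = 0.0138), the latter lost without normal liver 2 (0.0548). Col1a2 read 2.45, 2.58 and 1.48 in tumours, 1.41, 1.30 and 1.12 in non-tumour liver and 1.94, 1.70 and 1.82 in normal liver. Tumour 3 was thus above all non-tumour arrays and below all normal ones. The Col1a2 rise over non-tumour liver was 1.86-fold (0.89 ± 0.24, adjusted p = 0.0117; 0.0551 in a fit of the 6 arrays alone), and the 0.35 over normal liver was not called (adjusted p = 0.26; 0.69 and 0.00249 without tumour 3).

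Col3a1, the type III chain that accompanies type I, showed the same low sample. It read 1.68, 1.56 and 0.44 in tumours against 0.61, 0.44 and 0.17 in non-tumour liver, and the difference of 0.82 was not called (adjusted p = 0.0689). With the replicate number as a block it was not called on 12 arrays (0.102) and passed on 6 (0.0478), and without tumour 3 the difference was 1.21 (adjusted p = 0.00559). Against normal liver Col3a1 differed by 0.58 (adjusted p = 0.181), or by 0.97 without tumour 3 (adjusted p = 0.0164).

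Col5a3, Col27a1 and Col5a1, of the minor fibrillar chains, fell in both comparisons. Col5a3 (chr9:20574592-20574651, minus strand) read 0.74, 1.87 and 2.28 in tumours against 3.48, 3.88 and 3.33 in non-tumour liver, 3.82-fold lower (-1.93 ± 0.33, adjusted p = 0.000762). Col27a1, a fibrillar collagen known from cartilage, read -1.75, -2.06 and -2.53 against 0.06, 0.19 and -0.26, 4.32-fold lower (-2.11 ± 0.33, adjusted p = 0.000444). Neither gene had a tumour within the range of the other 9 arrays. Col5a1 fell by 0.65 (adjusted p = 0.0113), with tumours at -1.68, -1.66 and -2.12 and the other arrays between -1.31 and -0.74. Against normal liver Col5a3 fell by 2.05, Col27a1 by 2.21 and Col5a1 by 0.78 (adjusted p from 0.000344 to 0.00432). Col11a2 read -2.85, -2.39 and -3.09 in tumours, was above background on 0 of 3 non-tumour and 2 of 3 normal arrays, and was called in neither comparison.

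Of 4 tested collagens that bind fibrils, 0 rose, 1 fell (25%, beside 29.9% of all genes) and 3 were not called. Col14a1, which sits on the surface of type I fibrils, read 1.17, 1.43 and 0.98 in tumours against 2.05, 2.0 and 2.30 in non-tumour liver, 1.90-fold lower (-0.92 ± 0.13, adjusted p = 0.000268). The Col14a1 tumours were below every other array, and a further probe of the gene fell by 0.63. Col16a1, Col20a1 and Col9a2 differed by -0.21, -0.58 and -0.48 and were not called (adjusted p from 0.193 to 0.389). Without tumour 2 the Col16a1 difference was -0.46 (adjusted p = 0.0226), and without tumour 3 that of Col20a1 was -0.99 (adjusted p = 0.0325). Col7a1, the anchoring fibril collagen, differed by -0.76 (adjusted p = 0.0632), which passed with the replicate block (0.00747 on 12 arrays and 0.0397 on 6) and without tumour 2 (0.0265).

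Type VI collagen forms beaded filaments around cells, and 3 of its 6 genes were tested. Col6a6 was above background in tumours alone, at -1.26, -0.66 and -0.50 (chr9:105676597-105676655, minus strand), and was at least 4.83-fold higher than in non-tumour liver and at least 4.29-fold higher than in normal liver. Its other probe also passed through the tumours alone, at -2.02, -1.54 and 1.87, with tumour 3 far above the others. Col6a1 read -0.86, -0.70 and -1.58 in tumours against 0.24, 0.20 and -0.77 in non-tumour liver, so the groups overlapped at non-tumour 3. It fell by 0.94 (adjusted p = 0.0213), a call lost without non-tumour 1 (0.0802), non-tumour 2 (0.0784) or tumour 3 (0.0761), and by 1.25 against normal liver (adjusted p = 0.00499). Col6a3 differed by 0.09 (adjusted p = 0.795).

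Col18a1, the basement membrane collagen whose end fragment is endostatin, read 6.97, 7.29 and 7.30 in tumours against 7.54, 7.62 and 7.40 in non-tumour liver. The fall of 0.33 (adjusted p = 0.0251) was lost under quantile scaling (-0.10, adjusted p = 0.387), with the replicate block on 6 arrays (0.115), or when non-tumour 1 (0.0668), non-tumour 2 (0.0871) or tumour 1 (0.0783) was left out. A shift to a common median (0.0571), normexp background correction (0.124) and the percentile of detected probes (0.163) ended it too. A second probe of the gene, 864 bases away, read 6.40, 6.71 and 6.78 in tumours against 7.47, 7.54 and 7.37 and fell by 0.83 (adjusted p = 0.000203).

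The 3 small leucine-rich proteoglycans chosen by name for the matrix genes, Dcn, Lum and Bgn, fell in both comparisons, where 29.9% and 30.9% of all genes fell. Other members of that protein family are not described here, so these falls do not speak for the family. Dcn (decorin, a collagen-binding proteoglycan) read 3.98, 4.06 and 3.84 in tumours, 5.97, 6.10 and 5.98 in non-tumour liver, 6.07, 6.0 and 5.80 in normal liver and 6.04, 6.31 and 6.22 in control-line non-tumour liver. The 9 arrays outside tumours spanned 5.80 to 6.31, and the tumours were 4.15-fold lower than non-tumour liver (-2.05 ± 0.11, adjusted p = 3.99e-07; chr10:96980233-96980292). Lum (lumican) read -0.56, -0.64 and -0.86 against 1.18, 0.76 and 0.75 in non-tumour liver, 3.00-fold lower (-1.58 ± 0.14, adjusted p = 9.16e-06). Bgn (biglycan) read 0.22, 0.28 and 0.47 against 0.75, 0.98 and 0.99, 1.5-fold lower (-0.58 ± 0.15, adjusted p = 0.00779). Each tumour was below each other array for all 3 genes. Stellate cell markers, given below, moved the same way, and their part in these falls was not tested.

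Of the glycoproteins, Sparc (osteonectin, which binds collagen and calcium) read 9.16, 9.62 and 9.25 in tumours against 6.74, 6.73 and 6.61 in non-tumour liver and from 6.54 to 6.94 in the remaining groups. The tumours lay far above all 9 other arrays, 6.27-fold over non-tumour liver (2.65 ± 0.14, adjusted p = 5.18e-07) and 6.29-fold over normal liver (2.65 ± 0.14, adjusted p = 5.4e-07). Another Sparc probe rose by 2.77. Fn1 (fibronectin), which hepatocytes also secrete into plasma, read 8.64, 8.79 and 8.60 against 8.35, 8.38 and 8.48, 1.21-fold higher (0.27 ± 0.09, adjusted p = 0.024). The Fn1 call was lost in the blocked fit of 6 arrays (0.115). Leaving out non-tumour 1 (0.0805), non-tumour 2 (0.0653) or tumour 2 (0.0908) also ended it. So did a shift to a common median (0.313). Postn and Fbln1 differed by 0.16 and -0.11 and were not called (adjusted p = 0.634 and 0.737).

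Acta2, the smooth muscle actin of activated stellate cells and vessel walls, read 1.13, 1.85 and 0.88 in tumours, -0.57, -0.34 and 0.04 in non-tumour liver, -0.29, -0.65 and 0.29 in normal liver and -1.12, 0.13 and -0.46 in control-line non-tumour liver. Tumours were above all other arrays, 2.97-fold over non-tumour liver (1.57 ± 0.36, adjusted p = 0.00471) and 2.83-fold over normal liver (adjusted p = 0.0061). Des, the intermediate filament gene of stellate cells, was above background on 4 of the 12 arrays and was not tested.

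**Figure D3:**
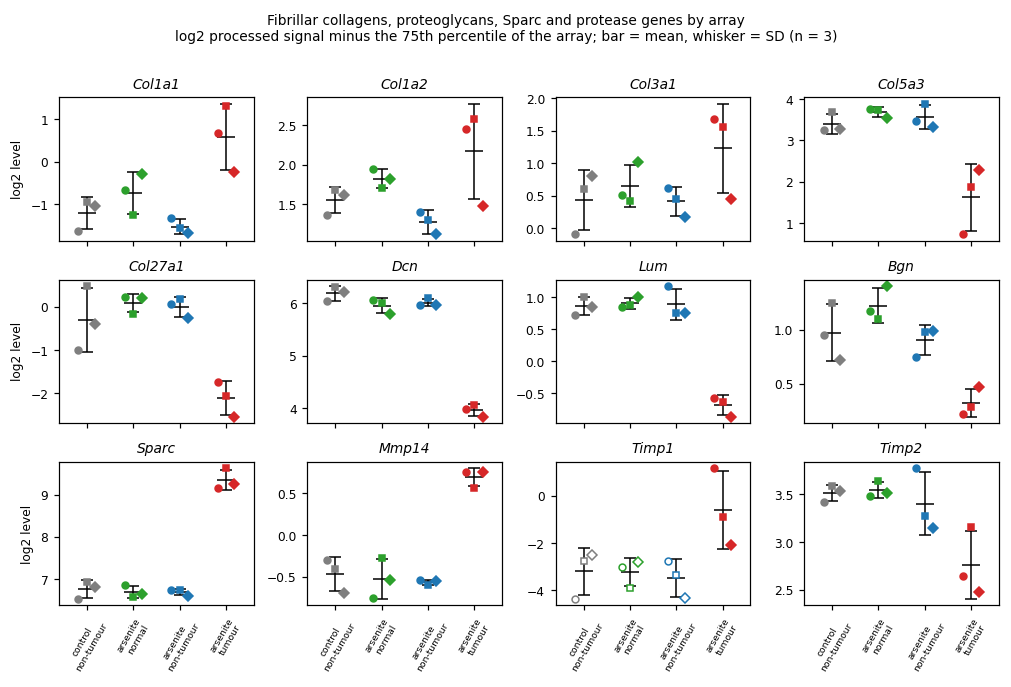
Each panel plots the log2 level (vertical axis, log2 units relative to the 75th percentile of the array) of an interstitial matrix or protease gene in the 4 groups; circles, squares and diamonds are samples 1, 2 and 3, bars are means, whiskers are SDs (n = 3), and open symbols mark groups in which not all 3 arrays were above background. Dcn lies at 3.84 to 4.06 in tumours and 5.80 to 6.31 elsewhere, while Sparc lies at 9.16 to 9.62 in tumours and 6.54 to 6.94 elsewhere.

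Of 5 lysyl oxidase genes, which encode the enzymes that cross-link collagen and elastin, 3 were tested. Loxl3 read -2.92, -3.28 and -2.77 in tumours against -2.01, -2.36 and -2.18 in non-tumour liver, 1.75-fold lower (-0.81 ± 0.19, adjusted p = 0.00624), and fell by 1.10 against normal liver. Loxl2 differed by 0.04 (adjusted p = 0.837). Loxl4 was above background on all tumour arrays (-1.11, 0.36 and -0.94) and no non-tumour array (-5.03, -3.57 and -3.25), yet single arrays of the other groups stood high, control-line non-tumour 2 at -1.10 and normal liver 2 at 0.76. The difference from non-tumour liver was at least 5.72-fold, and in the main fit it was not called in either comparison. With the replicate number as a block it was called against non-tumour liver, on 12 arrays and on 6. Since Loxl4 passed the filter through the tumours alone, these calls are not evidence of a difference. The other Loxl4 probe had no such high array and read -1.82, -0.60 and -2.07 in tumours and -4.64, -4.43 and -4.37 in non-tumour liver, with no array outside the tumours above background.

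**Figure D4:**
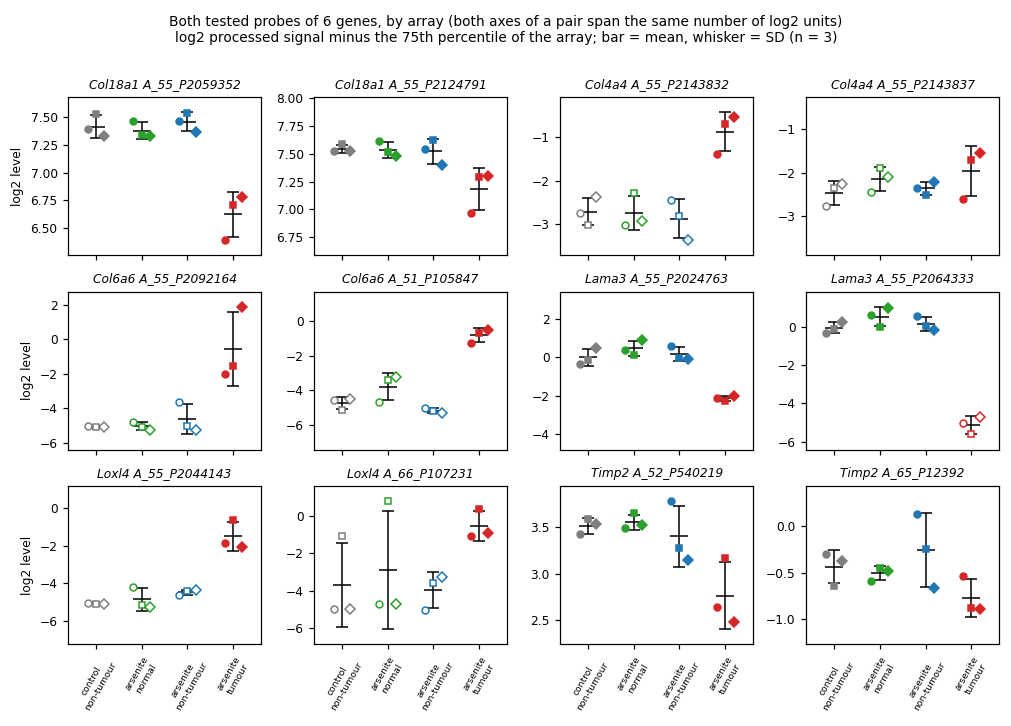
Each pair of panels shows both tested probes of a gene, with the log2 level (vertical axis, log2 units relative to the 75th percentile of the array) in the 4 groups; circles, squares and diamonds are samples 1, 2 and 3, bars are means, whiskers are SDs (n = 3), and open symbols mark groups in which not all 3 arrays were above background. For Loxl4, the high values of control-line non-tumour 2 (-1.10) and normal liver 2 (0.76) appear in 1 of the probes, and for Col4a4 the tumours are clear of the other groups in 1 of the probes.

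Of 21 metalloproteinase genes, 5 were tested, of which 1 rose (20%, beside 17.1% of all genes) and 1 fell (20%, beside 29.9%). Mmp14, a membrane-bound enzyme that cuts fibrillar collagen and activates other metalloproteinases, read 0.75, 0.57 and 0.76 in tumours against -0.54, -0.60 and -0.55 in non-tumour liver and from -0.75 to -0.28 in the remaining groups. The tumours stood clear of every other array, 2.38-fold over non-tumour liver (1.25 ± 0.14, adjusted p = 4.26e-05; chr14:55058775-55058834). Mmp19, whose substrates are basement membrane proteins, read -0.80, -0.16 and -0.11 against 0.76, 0.45 and 0.56, 1.93-fold lower (-0.95 ± 0.19, adjusted p = 0.00193). Against normal liver, Mmp14 rose by 1.21 and Mmp19 fell by 1.03. Mmp15, Mmp17 and Mmp11 differed by 0.41, -0.13 and -0.36 and were not called (adjusted p = 0.235, 0.708 and 0.258).

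Of 3 tested TIMP genes, Timp3 rose, Timp2 fell and Timp1 passed the filter through the tumours alone. Timp1, an inhibitor induced in injured liver, read 1.17, -0.91 and -2.07 in tumours against -2.76, -3.35 and -4.32 in non-tumour liver, with no non-tumour array above background. The tumours differed widely among themselves, tumour 1 being the highest, and the difference from non-tumour liver was at least 5.26-fold. Of the normal liver arrays, 1 of 3 was above background. Timp3, the inhibitor that binds to the matrix itself, read 2.73, 3.12 and 3.12 against 2.08, 2.41 and 2.30, 1.66-fold higher (0.73 ± 0.18, adjusted p = 0.00728). Its rise of 0.53 over normal liver (adjusted p = 0.0329) was lost without any 1 array of the comparison but tumour 1 (0.0514 to 0.0982). Timp2 read 2.65, 3.16 and 2.48 in tumours against 3.77, 3.27 and 3.15 in non-tumour liver. The groups overlapped, and the fall of 0.64 (adjusted p = 0.0193) was lost with the replicate block on 6 arrays (0.0944) and without non-tumour 1 (0.0724), tumour 1 (0.0596) or tumour 3 (0.0708). Quantile scaling (0.0537) and scaling to the percentile of detected probes (0.0608) ended it too.

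The 45 untested genes included 26 that were above background on no array, among them Lox, Tnc, Col5a2, Mmp2, Mmp3, Mmp8, Mmp9 and Timp4. Their levels are not known from these arrays beyond being dim. The other 19 were above background on 1 to 6 arrays. Col25a1 was seen on 6, Col6a2 and Mmp23 on 5 each and Lamc3 on 4. Col22a1 was above background on tumours 1 and 2 and on no other array, and it read -1.48, -2.04 and -4.15 in tumours. Col12a1, Col17a1, Eln, Loxl1, Mmp13 and Mmp7 were each seen on 1 tumour array and no other.

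Outside the tumours no matrix gene was called. Between arsenite-line non-tumour and normal liver, limma called 0 of the 50 (0% of all genes tested), and 3 had an unadjusted p under 0.05 (6.82% of all genes). The groups did not overlap for 8 of the 50 (15.2% of all genes), 7 of them lower in non-tumour liver (7.31%) and 1 higher (7.87%). The lower ones included Col1a1 (-0.79, adjusted p = 0.745) and Col1a2 (-0.54, adjusted p = 0.726), whose arrays are given above, and Bgn, Col11a2, Col16a1, Col6a3 and Col6a6. Col6a6 was above background in neither group and Col11a2 on no non-tumour array, so these 2 rest on levels at background. The higher one was Mmp11, the stromelysin gene first described in tumour stroma (0.50, unadjusted p = 0.075). The median difference of the 50 was -0.13, against 0.00 over all genes.

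Between arsenite-line and control-line non-tumour liver, which shared a slide, limma also called 0 of the 50 (0.00552% of all genes), and 2 had an unadjusted p under 0.05 (5.61% of all genes). The groups did not overlap for 4 genes (10.5% of all genes), 0 of them higher in the arsenite line (3.63%) and 4 lower (6.87%), namely Col11a2, Col16a1, Postn and Col4a3. Col11a2 read -3.49, -3.83 and -3.01 in the arsenite line against -2.75, -2.57 and -2.27 (adjusted p = 0.618), with no arsenite-line array above background, and Postn, a matricellular protein of fibrotic tissue, differed by -0.47. Col4a3 was above background in neither group. In data simulated on these arrays, 68 of 100 genes changed by 1 log2 unit and 93 of 100 changed by 2 were recovered in this comparison. All of these genes were changed at the same time. With fewer changed genes the adjusted cut-off is stricter, so these rates do not hold for a single changed gene. For the 50 genes the 95% interval of a difference reached 0.55 log2 units to either side at the median, from 0.19 for Fn1 to 3.25 for Loxl4.

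Genes that act with the matrix were taken from 4 lists, none of which shares a gene with the 95. Beside the shares over all genes of 17.1% higher and 29.9% lower, of 20 tested integrins and collagen receptors 7 rose over non-tumour liver (5 of 17 without genes that passed through 1 group alone) and 5 fell (3 without non-tumour 1, without tumour 1 or in the blocked fit of 6 arrays). Itga11, the collagen-binding integrin chain of fibroblasts, read 0.09, 1.02 and 0.67 in tumours against -3.63, -2.43 and -3.58 in non-tumour liver, where 1 of 3 arrays was above background (adjusted p = 8.31e-06). Ddr1, a receptor kinase for collagen with a high affinity for type IV, was above background in tumours alone (0.48, 0.32 and 0.04) and at least 10.3-fold higher. The laminin-binding chain gene Itga3 rose by 1.64 (adjusted p = 8.31e-06), and Itga2, a collagen-binding chain also above background in tumours alone, was at least 1.34-fold higher.

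Among 23 tested genes of collagen synthesis and processing, 4 rose (17.4%, beside 17.1% of all genes) and 5 fell (21.7%, beside 29.9%), with 7 higher under quantile scaling. Adamts14, which trims the front end of fibrillar procollagens, read 2.50, 2.96 and 2.61 in tumours against -1.87, -2.39 and -1.51 in non-tumour liver and from -1.87 to -1.36 in the remaining groups. All tumours were far above, by 24.5-fold (4.62 ± 0.21, adjusted p = 1.71e-07). P4ha2, a prolyl hydroxylase that stabilises the triple helix, fell by 1.84 (adjusted p = 6.47e-05), and Bmp1, which trims the other end, fell by 0.66 (adjusted p = 0.00019). Crtap, of the prolyl 3-hydroxylation complex, rose by 0.77 (adjusted p = 0.000457). Of 30 other matrix components, Acan (aggrecan), above background on 1 tumour array, fell by 2.24 (adjusted p = 3.86e-05) and Vtn (vitronectin), a plasma protein made by hepatocytes, by 0.65 (adjusted p = 0.000388), beside Nid1 and Hspg2 above.

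Of 22 tested other matrix proteases and inhibitors, 10 rose and 6 fell. Without genes that passed through 1 group alone, 5 of 17 rose (29.4%, beside 14.7% of all such genes) and 6 fell (35.3%, beside 31.7%). The protease inhibitor Serpine2 read -5.21, -5.44 and -4.42 in tumours, with none above background, against -0.42, -0.87 and -0.71 in non-tumour liver, at least 6.80-fold lower (adjusted p = 2.61e-06). Adamts5, an aggrecan-cutting enzyme, was at least 3.16-fold lower (adjusted p = 3.78e-06). Hpse (heparanase) fell by 1.39 (adjusted p = 4.75e-05) and Adam15 rose by 1.08 (adjusted p = 5.39e-05).

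Markers of the cells that make or hold matrix were measured on the same arrays. A list's summed level is the sum over its tested genes of the linear signal in multiples of the array's 75th percentile, so bright genes weigh most. Counts of genes called over non-tumour liver stand beside 17.1% higher and 29.9% lower over all genes. For stellate cells (8 of 10 listed genes tested), 7 fell and 1 rose (Reln), and the sum was 9.07 to 9.82 in tumours against 26.2 to 29.3 in non-tumour liver, 24.3 to 27.7 in normal liver and 24.5 to 31.1 in control-line non-tumour liver. Lrat, which stores vitamin A in these cells, fell by 2.14 and Colec11 by 2.03. For portal fibroblasts (6 of 8 tested), 2 rose, 0 fell (1 fell without tumour 3) and 4 were not called, and the sum was 13.9 to 16.4 against 3.49 to 4.18, with Entpd2 higher by 2.65. The tumours thus had the lowest stellate and the highest portal fibroblast sums of the 12 arrays. Gene by gene, the median difference from non-tumour liver was -1.73 over the 8 stellate genes and 0.56 over the 6 portal fibroblast genes. Smooth muscle (4 genes) had 2 higher (1 without non-tumour 1 or 2 or without tumour 1 or 2) and 1 lower, with sums of 11.6 to 15.9 against 9.57 to 11.1. Without the smooth muscle gene that passed the filter through 1 group alone, 1 of 3 was higher and 1 lower. Over all genes left by that rule, 14.7% were higher and 31.7% lower. The part of these cell types in the changes of Dcn, Lum, Col1a1, Acta2 and the other genes was not tested.

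Among other cell types, macrophage markers fell in 7 of 9 tested genes (77.8%, beside 29.9% of all genes). Their sums were 42.5 to 79.1 in tumours against 128 to 174 in non-tumour liver. Endothelial markers had 1 higher (10%, beside 17.1% of all genes) and 3 lower (30%, beside 29.9%) of 10, with a median difference of -0.06. Their sums were 58.9 to 80.7 against 99.8 to 120. Bile duct markers summed to 16.3 to 57.1 against 2.14 to 3.03, but only Krt23 of the 5 was called. Hepatocyte markers had 1 higher (12.5%) and 3 lower (37.5%) of 8, with overlapping sums (4040 to 4950 against 4480 to 4930). Alb, which marks liver, differed by -0.05 (adjusted p = 0.722). Neutrophil markers had 2 of 5 lower and overlapping sums. T and NK cell markers summed to 129 to 175 in tumours against 31 to 58.2 in non-tumour liver and 52.8 to 69.5 in normal liver. Of the 4, Cd4 rose by 1.88 and Nkg7 fell by 0.31, while the T cell receptor complex gene Cd3e differed by -0.09 (adjusted p = 0.66). B and plasma cell markers had 2 higher and 1 lower of 5, with sums of 15 to 19.3 against 21.4 to 23.5. Without the gene of that list that passed through 1 group alone, 1 of 4 was higher and 1 lower. The 1 tested mesothelium gene, Msln, was lower.

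**Figure D5:**
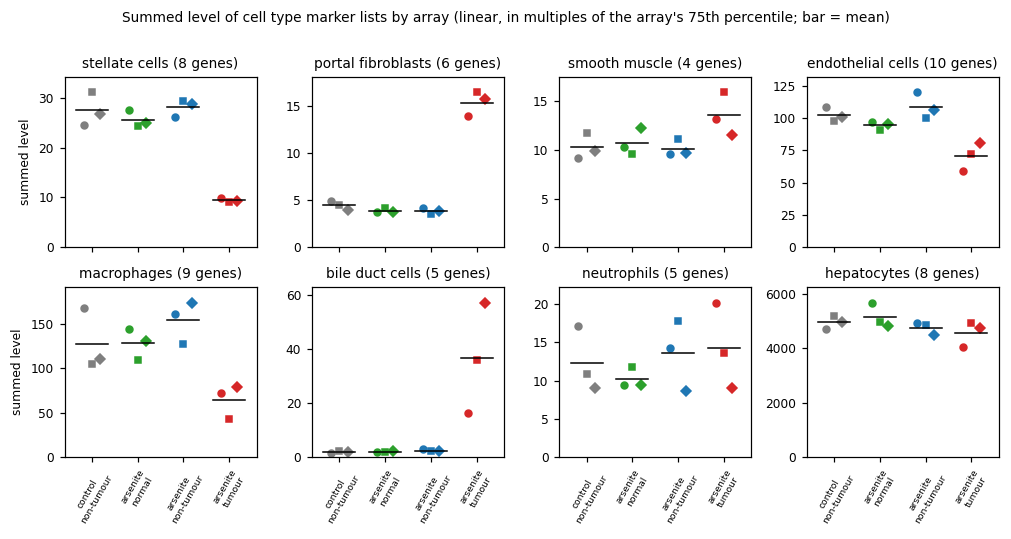
Each panel plots, per array, the summed linear level of the tested genes of a cell type marker list (vertical axis, in multiples of the 75th percentile of the array); circles, squares and diamonds are samples 1, 2 and 3 and bars are means (n = 3). Stellate cell sums are 9.07 to 9.82 in tumours and at least 24.3 elsewhere, and portal fibroblast sums are 13.9 to 16.4 in tumours and at most 4.92 elsewhere.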

How the data were processed

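RNA (100 ng per sample, column-purified with a DNase step, per the labels' protocols) was labelled with Cy3 and hybridised to 12 arrays. The scanner files were deposited with a processed signal per spot, which per the file headers is an intensity with the background subtracted and no scaling between arrays. The deposited value table holds a ratio on the linear scale, checked to be that signal over the 75th percentile of all spots, with medians of 0.0842 to 0.115 per array, and served as an alternative. The headers name Agilent Feature Extraction 10.7.3.1 and probe positions on mm9, and the submitters' processing notes name 12.0.3.1.

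From the deposited intensities, log2 values minus the 75th percentile over the 59305 non-control spots of an array were computed, and spots of a probe were averaged without those marked as outliers. Of 55681 probes, 24144 were well above background on all 3 arrays of a group, and a gene was represented by its probe of highest mean. A RefSeq table named 27235 probes by accession, 3581 by symbol and 565 by synonym, and the other 24300 kept their array name. Promoters are from RefSeq, with none matched for 27 of the 95 genes.

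The 12 arrays were fitted together with 1 mean per group (R 4.3.3 with limma 3.58.1, a moderated test on both sides, Benjamini-Hochberg over 18101 genes). A fit of 6 arrays alone lost 7 calls against non-tumour liver: Col18a1, Col1a2, Col4a6, Col6a1, Fn1, Lamc1 and Timp2 (adjusted p from 0.0551 to 0.103). It gained Col7a1 and Loxl4, the latter selected through the tumours alone. Against normal liver it lost 5: Col18a1, Col1a1, Col4a2, Fn1 and Lamc1 (0.0538 to 0.0833). Folds against a group with no array above background are bounds. On data simulated from these arrays, 78 of 100 genes changed by 1 log2 unit and 94 of 100 changed by 2 were recovered in tumours against non-tumour liver. Far fewer genes were changed there than the 47.0% called in the real comparison, so these rates are for the simulated setting alone. The number of arrays limits the precision. Tables and figures were made in Python 3.11.15 (numpy 2.4.6, pandas 2.3.3, matplotlib 3.10.9, scipy 1.17.1).

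As a check of pairing, residuals of tumours and arsenite-line non-tumour arrays were compared. Equal numbers gave correlations of 0.13, 0.13 and 0.23 and unequal ones gave -0.15 to -0.00, which is enough for pairing by the rule used, although the labels state none. The residuals of a group sum to 0, so positive values for equal numbers push those for unequal numbers down. The low unequal values are therefore not separate evidence of pairing. The number served as a replicate block in added fits of the 6 arrays compared or of all 12. On 12 arrays the block tied equal numbers across all 4 groups. These include mice of different lines, so that fit does not adjust for a known pairing. The value of a blocked fit stands beside a result against non-tumour liver where the call differs, except for genes given with no p. In the other comparisons the rule was not met. Against normal liver the blocked fit of 6 arrays ended 9 calls. They were Col1a1 (limma, adjusted p = 0.117), Col4a2 (0.11), Lamc1 (0.0921), Lama4 (0.0759), Col4a6 (0.0731), Timp3 (0.0675), Col18a1 (0.13), Fn1 (0.107) and Timp1, the last selected through the tumours alone. That fit also called Col7a1 and Col9a2, which the main fit did not. The block on 12 arrays ended the call of Col4a6 alone (0.0606) and added Col7a1 and Col16a1.

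The genes, the lists and the comparisons were chosen with earlier results of these data known. Any of the 95 genes could be named, with full statistics for at most 30 per comparison by size of the difference and their class partners, and of each other list up to 4 genes with the smallest p. Other groups of the study were not analysed here. The values of 1 gene are not reported here.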

Additional observations from a re-analysis of the deposited data

How the results depend on the processing

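The settings tried were quantile scaling, a shift to a common median, the 75th percentile of detected probes, normexp background correction, the authors' value table, no filter and a strict filter on dim probes, every probe singly, the mean of probes, the 6 arrays of a comparison alone, array weights, the replicate block and leaving out each array. The slide as a block could not be fitted against the tumours or normal liver and was not run. Against non-tumour liver, the 16 higher and 16 lower matrix genes became 14 to 18 higher and 12 to 19 lower when any 1 array was left out, and 16 higher and 14 lower (6 arrays) or 17 higher and 16 lower (12 arrays) with the replicate block. Against normal liver, leaving out 1 array gave 11 to 16 higher and 14 to 19 lower. There the replicate block on 6 arrays left 9 higher (16 without it), and with no filter 31 were lower (16 with it), where dim probes of all 95 genes entered. The non-tumour comparisons had 0 matrix genes called in every setting run. The share of higher genes among all genes called against non-tumour liver was 36.3%, with 53.6% for the percentile of detected probes and 48.1% for quantile scaling. Against normal liver it was 35.7%, with 59.5% for the median shift, 50.7% for the percentile of detected probes, 48.5% for quantile scaling and 21.7% with no filter. Of the related lists against non-tumour liver, collagen synthesis had 7 higher genes (4 in the main setting) with quantile scaling, normexp or the percentile of detected probes, other matrix components had 4 lower (8) in the fit of 6 arrays, and with the strict filter 4 integrins and receptors (7) and 4 proteases and inhibitors (10) were higher. Leaving out genes that passed the filter through 1 group alone, a setting chosen after seeing the data, left 12 higher and 16 lower matrix genes in both tumour comparisons and 5 higher proteases and inhibitors. The cause of these shifts was not tested. Signal over background limits the 45 untested genes and the bounds.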

Other observations

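The 3 tumours did not rank alike over the 50 tested matrix genes. Tumour 3 was the lowest tumour for 26 of them (31% of all genes tested), tumour 1 for 19 (45.2% of all genes) and tumour 2 for 5 (23.8%). Tumour 2 was the highest for 25 (37.9% of all genes), tumour 3 for 15 (33.8%) and tumour 1 for 10 (28.4%). As examples chosen after their values were seen, genes of type I and III collagen, Col4a1, Col4a2, Lamc1 and Col6a1 were all lowest in tumour 3, whereas Col5a3, Col4a6, Mmp19, Sparc and Timp3 were lowest in tumour 1.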
